A study of Mus musculus with 10 samples.

Results

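The genes described here are 8 mouse inhibitors that restrain the ERK MAP kinase cascade from within: the dual-specificity phosphatases Dusp1, Dusp2 and Dusp6, the sprouty proteins Spry1, Spry2 and Spry4, and the sprouty-related proteins Spred1 and Spred2. Members were taken as every non-control probe set of the array whose single annotated symbol is one of these 8. This gave 6 probe sets for 5 genes, out of 10833 single-symbol probe sets for 8251 genes. Dusp6 had 2 probe sets and Dusp1, Dusp2, Spry4 and Spred2 had 1 each. No array values of Spry1, Spry2 and Spred1 were analysed here, only their promoter sequence. Of the 6 probe sets, 5 passed a filter on low signal, and the dimmer probe set of Dusp6 did not.

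The RNA came from the visual cortex of wild-type C57Bl6 mice from which one eye was removed at postnatal day 14; tissue was taken after a further 4 days, at postnatal day 18. Cortex on the opposite side from the lost eye made up the deprived group (5 samples), and cortex on its own side the non-deprived group (5 samples). Every animal had thus undergone the surgery, and the hemisphere on the side of the lost eye is the control, not an intact brain. The design text speaks of pooled samples and the protocol of 4 mice, without saying how animals were divided over the samples, so the p-values measure only the spread between these samples, which may be technical in part. Each sample was read on 1 Affymetrix array, as MAS5 signals in arbitrary units scaled to a common mean. In such bulk tissue, fewer cells of a type and less RNA per cell cannot be told apart.

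ERK is the last kinase of a cascade that runs from growth factor and glutamate receptors through Ras, Raf and MEK, and in neurons of the cortex it carries synaptic activity to the nucleus. Activated ERK can induce transcription of several of its own inhibitors, so that their mRNA can follow recent signalling. ERK activity itself was not measured on these arrays. Dusp6 removes the activating phosphates from ERK in the cytoplasm, Dusp1 and Dusp2 do so in the nucleus and act on further MAP kinases, and Spry and Spred proteins act higher up, between receptor and Raf.

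Dusp6 and Dusp1 had the differences with the smallest p among the members, with mean signals 35.3% and 32.3% lower in deprived cortex. Spred2 had a mean 16.0% lower, the groups of Dusp2 overlapped widely, and Spry4 was the only tested member with a higher mean in deprived cortex, by 31.2%. None of these 5 probe sets passed an adjusted p of 0.05 over all 7453 tested probe sets in limma, and Dusp6 missed it narrowly at 0.0503. No probe set of the array passed (0 of 7453, 0%), while 357 (4.79%) had an unadjusted p under 0.05 and 71 (0.953%) had groups that did not overlap. In limma, 3 of the 5 tested members were lower at an unadjusted p under 0.05 (Dusp6, Dusp1 and Spred2), a direction and threshold reached by 2.36% of all tested probe sets. Another 1 of the 5 (Spry4) was higher at that threshold, which 2.43% of all tested probe sets were. The median log2 difference of the 5 was -0.25, beside 0.0066 for all tested probe sets. The members were chosen with earlier results of these data known, so the counts and the median are not independent evidence.

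**Figure D1:**
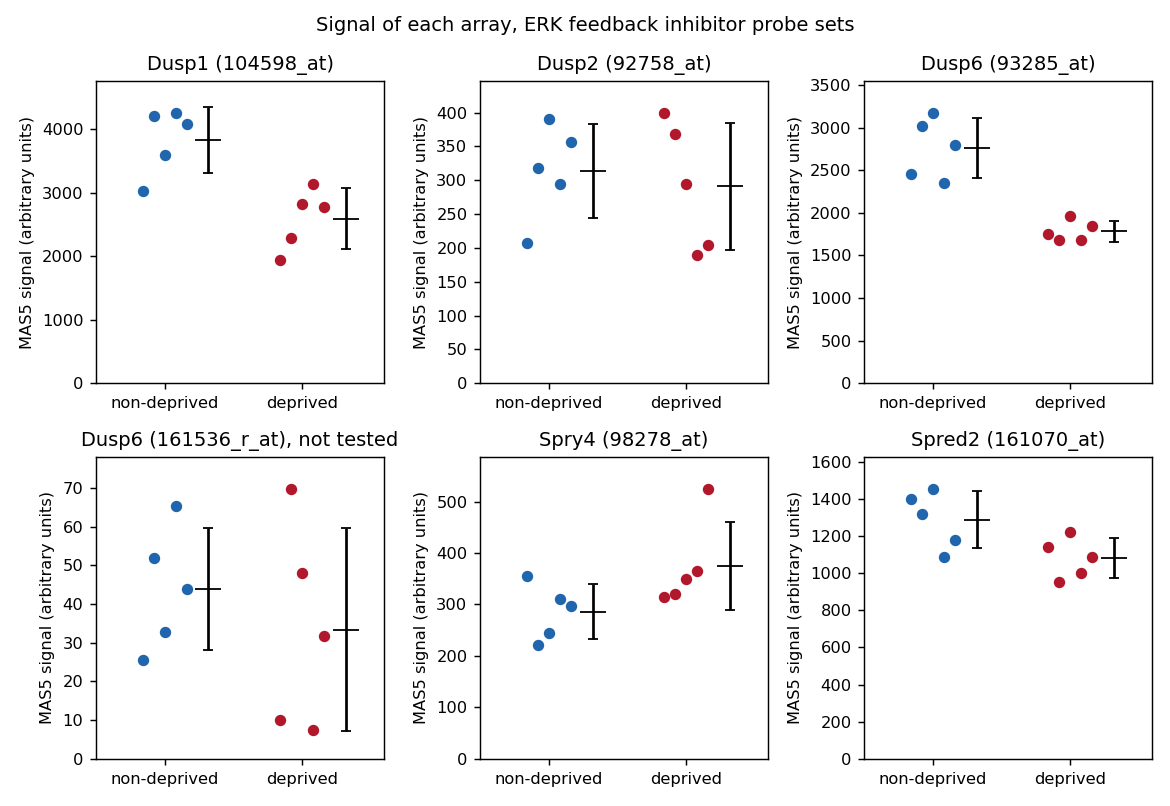
MAS5 signal (arbitrary units, vertical axis from 0) of the 6 probe sets on each array, with points in replicate order within each group, blue for non-deprived and red for deprived; bars beside the points give the mean and SD of 5 arrays. The brighter probe set of Dusp6 shows 2 groups with no overlap, Dusp1 a near separation, and Spry4 the opposite direction.

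Dusp6 is the ERK-selective phosphatase of the set. Its main probe set had signals of 1752, 1676, 1962, 1680 and 1845 in deprived replicates 1 to 5. In non-deprived replicates 1 to 5 the signals were 2458, 3019, 3167, 2351 and 2793. All 5 deprived arrays thus lay below all 5 non-deprived arrays, with a gap between the highest deprived signal (1962) and the lowest non-deprived signal (2351). Groups separated in this direction for 0.47% of all tested probe sets. The deprived arrays were also close to each other, with a coefficient of variation of 6.79% against 12.7% in non-deprived arrays. The mean signal was 35.3% lower in deprived cortex, and the log2 difference was -0.62 ± 0.09 (SE), with a 95% interval from -0.82 to -0.42. Its limma p was 1.35e-05, which ranked 2 among the 7453 tested probe sets (adjusted p = 0.0503). A difference at least this far below 0 was found for 27 probe sets, Dusp6 included. An exact two-sided permutation test over all divisions of the arrays into 5 and 5 gave p = 0.00794, the smallest that 5 against 5 arrays allow (0.833 after Benjamini-Hochberg adjustment over all tested probe sets). The side of the threshold on which Dusp6 fell depended on the setting: over the changes of pseudocount, filter, scaling and trend and the omission of single arrays, its adjusted p in limma ran from 0.0303 (without non-deprived replicate 1) to 0.249.

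The second Dusp6 probe set was too dim to repeat this measurement. Its deprived signals were 10.0, 69.7, 47.9, 7.5 and 31.8, and its non-deprived signals 25.6, 51.9, 32.7, 65.3 and 44.0. The groups overlapped fully, with a coefficient of variation of 78.5% in deprived arrays. It lay below the signal filter and was not tested; its log2 difference of -0.41 had the same sign as that of the main probe set.

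Dusp1 is a nuclear phosphatase of ERK, p38 and JNK and an immediate early gene. Its deprived signals in replicates 1 to 5 were 1933, 2292, 2823, 3140 and 2771. Its non-deprived signals were 3029, 4205, 3593, 4247 and 4073. A single pair of arrays broke the separation: deprived replicate 4, the highest of its group, lay above non-deprived replicate 1, the lowest of its group, so that the deprived array was lower in 24 of 25 pairs. The mean was 2592 ± 477 against 3829 ± 518 (SD, n = 5 each), or 32.3% lower. The log2 difference was -0.57 ± 0.13 (SE), with a 95% interval from -0.85 to -0.29, and its limma p of 0.000734 ranked 11 (adjusted p = 0.447). At an unadjusted p under 0.001, 0.148% of all tested probe sets were lower. The exact two-sided permutation p was 0.0159 (0.896 after adjustment over all tested probe sets). Within an array, the log2 ratio of Dusp1 to Dusp6 was 0.52 ± 0.27 on the deprived side and 0.47 ± 0.26 on the other (SD, n = 5 each), with overlapping ranges and a difference of 0.05.

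Dusp2, a nuclear phosphatase of ERK best known from activated lymphocytes, was variable and had the lowest mean log2 signal of the 5 tested members. Its mean signals of 291 in deprived and 313 in non-deprived cortex still lay above the array medians of 191 to 209. Its deprived signals were 399, 369, 294, 190 and 204, and its non-deprived signals 207, 318, 390, 295 and 356. Both the highest signal (deprived replicate 1) and the lowest (deprived replicate 4) came from deprived cortex, so the groups overlapped over nearly their whole range. The log2 difference was -0.13 ± 0.21 (SE) with a limma p of 0.553. Its 95% interval, from -0.59 to 0.33, held both 0 and the value of Dusp1, so these arrays do not show whether Dusp2 kept its level.

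Promoter sequence is printed for the 4 tested members with an entry in the RefSeq table (build GRCm38.p6), to set the 2 phosphatases with the clearest differences beside the 2 members with smaller ones. Each run holds the 250 bases before the annotated start, 5′ to 3′ on the gene's strand. Capitals mark the half-site of the cyclic AMP response element (TGACG, or CGTCA when read on the other strand) and the core of ETS factor sites (GGAA, or TTCC on the other strand). CREB, which binds the first, and ETS factors such as Elk1 and Etv5, which bind the second, are targets of ERK signalling.
Dusp6, chr10:99262981-99263230, plus strand: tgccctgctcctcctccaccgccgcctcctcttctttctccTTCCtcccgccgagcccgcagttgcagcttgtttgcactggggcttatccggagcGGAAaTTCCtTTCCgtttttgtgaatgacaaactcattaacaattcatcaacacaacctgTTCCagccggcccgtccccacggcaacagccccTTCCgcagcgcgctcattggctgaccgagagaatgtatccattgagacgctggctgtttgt
Dusp1, chr17:26508473-26508722, minus strand: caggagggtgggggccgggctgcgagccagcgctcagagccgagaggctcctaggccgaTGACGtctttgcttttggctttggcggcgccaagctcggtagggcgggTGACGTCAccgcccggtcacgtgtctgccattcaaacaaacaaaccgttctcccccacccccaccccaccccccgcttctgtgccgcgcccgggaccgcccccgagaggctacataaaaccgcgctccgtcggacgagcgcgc
Spred2, chr11:19924192-19924441, plus strand: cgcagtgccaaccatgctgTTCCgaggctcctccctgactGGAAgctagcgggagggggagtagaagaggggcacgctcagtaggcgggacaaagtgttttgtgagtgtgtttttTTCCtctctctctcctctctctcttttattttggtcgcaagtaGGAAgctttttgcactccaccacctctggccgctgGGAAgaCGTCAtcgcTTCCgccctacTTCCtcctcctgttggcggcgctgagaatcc
Dusp2, chr2:127335909-127336158, plus strand: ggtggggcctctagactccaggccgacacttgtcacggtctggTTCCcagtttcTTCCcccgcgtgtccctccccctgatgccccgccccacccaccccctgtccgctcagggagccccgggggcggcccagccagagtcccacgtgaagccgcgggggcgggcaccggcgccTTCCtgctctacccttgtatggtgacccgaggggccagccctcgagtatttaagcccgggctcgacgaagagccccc

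The Dusp1 window was the only 1 of the 7 members with a table entry to hold the full element TGACGTCA, which 1.55% of 32851 promoter windows of the same length held on either strand. It began 143 bases before the start, and its palindrome accounts for 2 of the 3 half-site matches of Dusp1, with the other at 191 bases. Spred2 held 1 half-site, and Dusp6 and Dusp2 held none; 17.8% of all windows held at least 1. The ETS core had 6 matches in Dusp6, 7 in Spred2, 3 in Dusp2 and none in Dusp1. That core is short, and 93.4% of all windows held at least 1. The share of windows with as many as 6 or 7 is not given here, so these counts have no background to be read against. No member window held TATAA (22.8% of windows), the AP-1 site TGANTCA (6.75% of windows) or the CArG box bound by serum response factor (1.47%), all searched on both strands. These matches describe letters in a window and do not show binding. Dusp6 and Dusp1 shared none of the searched motifs in these windows.

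Spred2 is a membrane-bound inhibitor that keeps Ras from activating Raf. Its deprived signals in replicates 1 to 5 were 1143, 951, 1223, 1001 and 1086, and its non-deprived signals 1402, 1321, 1453, 1086 and 1176. Of the 5 non-deprived arrays, 3 lay above every deprived array, while replicates 4 and 5 lay within the deprived range. The mean was 1081 ± 109 against 1287 ± 154 (SD, n = 5 each), or 16.0% lower. The log2 difference was -0.25 ± 0.10 (SE), and its limma p was 0.0295 (adjusted p = 0.992). A difference at least this far below 0 was found for 4.49% of all tested probe sets. The exact two-sided permutation p was 0.0476. The limma p was above 0.05 in 5 of the 10 omissions of single arrays (deprived replicates 2 and 4 and non-deprived replicates 1, 2 and 3), where it reached 0.0763 at a log2 difference of -0.20.

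Spry4, which blocks growth factor signalling to Ras and Raf, had the opposite direction. Its deprived signals were 315, 321, 350, 365 and 524, and its non-deprived signals 355, 221, 245, 311 and 297. The groups overlapped through non-deprived replicate 1, and 4 of the 5 non-deprived arrays lay below every deprived array. The mean was 375 ± 86.0 against 286 ± 53.7 (SD, n = 5 each), 31.2% higher in deprived cortex. The log2 difference was 0.37 ± 0.16 (SE), with a 95% interval from 0.03 to 0.71, and its limma p was 0.035 (adjusted p = 0.992). The exact two-sided permutation p was 0.0556, and 1.78% of all tested probe sets had a difference at least this far above 0. The highest deprived signal, 524, stood apart from the other deprived arrays, and without that array (replicate 5) the log2 difference was 0.25 and the limma p was 0.104. The limma p was also above 0.05 without deprived replicate 4 (0.0526) or non-deprived replicates 2 (0.0953) or 3 (0.0793). No detection calls were used, and signals as low as those of Spry4 and Dusp2 were not set against background.

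Set against each other within the same array, Dusp6 and Spry4 separated the groups without overlap. The log2 ratio of Dusp6 to Spry4 was 2.22 ± 0.27 (SD, n = 5) in deprived cortex, from 1.78 to 2.43. In non-deprived cortex it was 3.21 ± 0.43 (SD, n = 5), from 2.74 to 3.68. The ratio was thus lower by 0.99 on the log2 scale in deprived cortex. It was the only 1 of the 10 ratios among the 5 tested members whose ranges did not overlap. Since it combines the most negative and the most positive difference of the set, it is given as a description with no test. Dusp6 alone already separated the groups, so the ratio adds no separate evidence of a separation. The ratio of Dusp6 to Spred2 had a difference of -0.37, with a range of 0.61 to 0.81 for deprived and of 0.80 to 1.24 for non-deprived cortex that met at 1 non-deprived array.

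**Figure D2:**
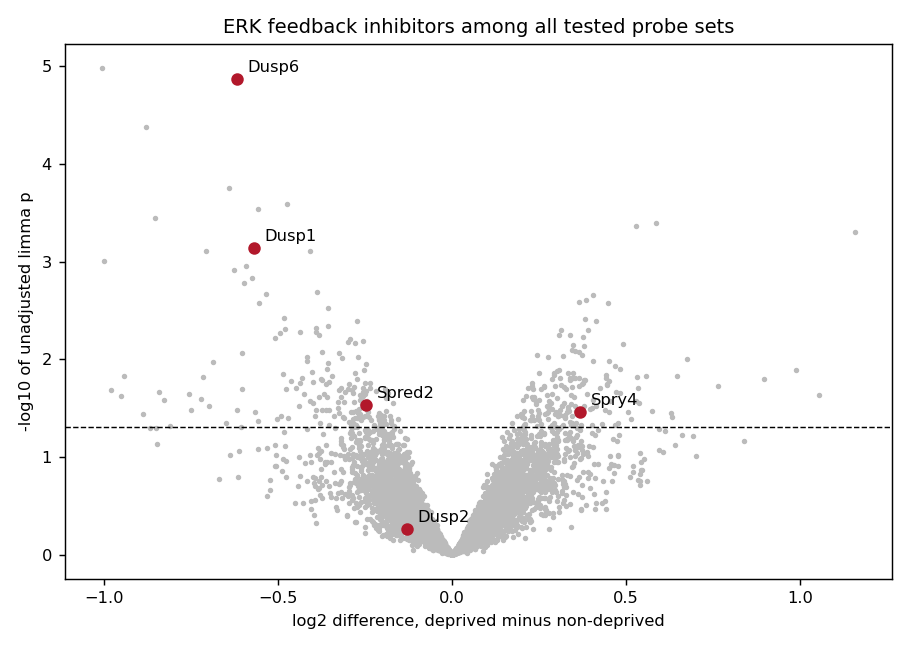
Log2 difference (deprived minus non-deprived, horizontal axis) against -log10 of the unadjusted limma p-value (vertical axis) for the 7453 tested probe sets in grey, with the 5 tested members in red; the dashed line marks the unadjusted threshold of 0.05. Dusp6 is second from the top, and Spred2 and Spry4 lie just above the line among many other probe sets.

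The rest of the pathway was read through 7 lists chosen by role, with 1 probe set per gene, that of the highest mean. The early genes downstream of ERK held most of the low values, while receptors, adaptors and kinases lay on both sides of 0. Of 14 tested ERK-induced early genes, 9 were lower at an unadjusted p under 0.05 in limma and none was higher, and none passed the adjusted threshold. Their median log2 difference was -0.43. The 3 with the smallest p were Fos, a partner of Jun in AP-1 (log2 -0.88 ± 0.15 SE), Btg2, an antiproliferative early gene (-0.64 ± 0.13), and Egr1, a zinc-finger factor (-0.47 ± 0.10). Junb, which had 2 tested probe sets, had -0.48 ± 0.14 in the brighter and -1.0 ± 0.15 in the dimmer, the smallest p of the array. The 5 early genes without such a p spanned -0.18 to 0.55 and included Jun at 0.0045 ± 0.15 and Ier3 at 0.06 ± 0.14. Many of these genes were known to be low in these samples when the list was drawn up, so the count is not independent evidence.

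The other MAP kinase phosphatases and ERK inhibitors that could be tested lay close to 0, with none as low as Dusp6 or Dusp1. The list named 28 genes, of which 17 had a single-symbol probe set. Those without one included Dusp4, Dusp5 and Dusp7, so whether these were lower is not known from these arrays. Of 15 tested genes, 1 was lower at an unadjusted p under 0.05 and none was higher, with a median log2 difference of -0.02 and a range from -0.24 to 0.14. Rgs2, an early gene that restrains G protein signalling, was that 1 (log2 -0.24 ± 0.10 SE, adjusted p = 0.992). The count was 2 under median scaling and 0 without deprived replicate 4 or non-deprived replicates 1, 2 or 5. Ppp2ca, the catalytic subunit of protein phosphatase 2A, had -0.19 ± 0.10, and Dusp12, an atypical dual-specificity phosphatase, had -0.23 ± 0.13. Among the classic MAP kinase phosphatases of this list, Dusp8 had -0.20 ± 0.17 in its brighter probe set and -0.26 ± 0.18 in its dimmer one. Dusp16, which acts on JNK and p38, had 0.14 ± 0.17. The neuronal tyrosine phosphatases Ptpn5 and Ptprr, which bind ERK, had -0.14 ± 0.09 and 0.04 ± 0.09.

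Upstream of ERK, 13 receptors and ligands had a median log2 difference of -0.00091, with 1 lower at an unadjusted p under 0.05. That 1 was Bdnf, the ligand of TrkB (log2 -0.56 ± 0.12 SE), whose groups did not overlap; Erbb3 and Pdgfra followed with 0.21 ± 0.11 and 0.22 ± 0.14. Of 13 adaptors and Ras regulators, none was lower and 1 was higher, the docking protein Gab1 (0.24 ± 0.11, adjusted p = 0.992). That count of 1 was 0 with a filter at the 60th percentile, median scaling, quantile normalization or no filter, and without deprived replicates 1, 4 or 5 or non-deprived replicates 2, 3 or 5. A dimmer tested probe set of Gab1 had -0.06 ± 0.21. The small GTPase Rap1a had 0.23 ± 0.12 in its brighter probe set and -0.23 ± 0.17 in a dimmer tested one. The exchange factor Rasgrp1 had 0.25 ± 0.18. None of the 9 tested kinases and scaffolds reached an unadjusted p under 0.05 in limma. Map2k1, the MEK that phosphorylates ERK, had signals of 1835 ± 255 in deprived and 1730 ± 307 in non-deprived cortex (SD, n = 5 each; log2 0.09 ± 0.13 SE). Ywhab, Cdc37 and Lamtor3 led that list by p with 0.14 ± 0.13, -0.10 ± 0.09 and -0.11 ± 0.11.

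Neither the substrates of ERK nor the parallel MAP kinase pathways had a tested gene at an unadjusted p under 0.05 in limma. The list of substrates and effector kinases named 18 genes, of which 10 had a single-symbol probe set and only 5 were tested. Creb1, which encodes CREB, was among those below the signal filter. The 5 tested genes spanned -0.05 to 0.10, led by Etv4 at 0.10 ± 0.14, Elk1 at 0.10 ± 0.15 and Mknk2 at -0.05 ± 0.13 (log2 ± SE). The 14 genes of the JNK and p38 pathways had a median of -0.03, with the smallest p for Mapk14, which encodes p38 alpha (-0.13 ± 0.08), Map2k4 (-0.19 ± 0.12) and Atf2 (-0.12 ± 0.08).

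**Figure D3:**
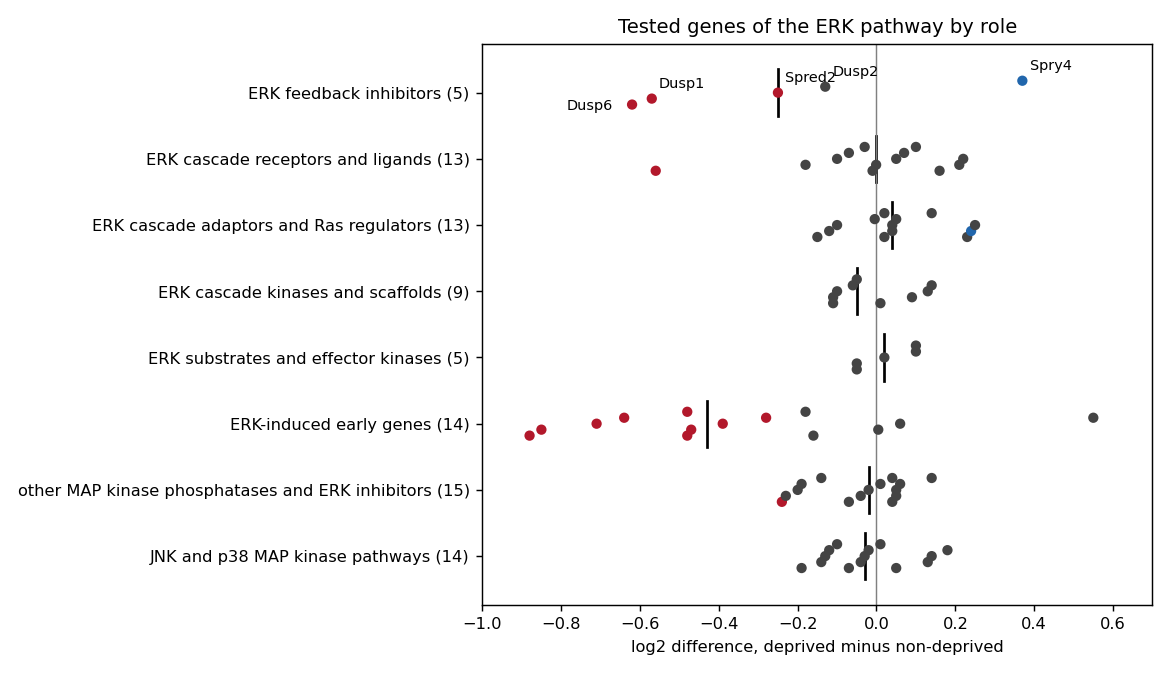
Log2 difference (deprived minus non-deprived) of each tested gene, 1 point per gene, by role in the pathway, with the number of genes in brackets and a black bar at the median; red and blue points are lower and higher at an unadjusted limma p under 0.05. The feedback inhibitors and the early genes hold 3 and 9 of the red points, and each other list holds at most 1.

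Profiles over the 10 arrays were compared by the root mean square difference of centred log2 signals, among 6741 other named probe sets. A small value says that 2 probe sets were high and low on the same arrays by the same amount, and it includes the difference between the groups. Nearest to Dusp6 were Inhba, an activin subunit (0.159), Cnih1, a cargo receptor of the early secretory pathway (0.179), and Setdb1, a histone methyltransferase (0.181), where Dusp6 itself spread by 0.336 around its mean. The groups did not overlap for Cnih1, with signals of 1158 ± 108 in deprived and 1489 ± 186 in non-deprived cortex (SD, n = 5 each). Inhba, at 142 ± 19.9 against 192 ± 22.6, and Setdb1, at 551 ± 88.5 against 790 ± 164, had overlapping groups.

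Nearest to Dusp1 were Mest (0.174), Zfp36l2, an mRNA decay factor (0.179), and Egr1 (0.183), where Dusp1 spread by 0.359. Like Dusp1, Mest and Zfp36l2 had overlapping groups, with signals of 208 ± 45.5 against 311 ± 44.8 and 633 ± 69.2 against 838 ± 126 (SD, n = 5 each). Dusp1 and Dusp6 lay at 0.237 from each other, rank 26 from Dusp1 and rank 69 from Dusp6 among the 7452 other tested probe sets. Spred2 was closer to Dusp6 (0.219, rank 38) than to Dusp1 (0.34, rank 838). Spry4 was far from both, at 0.588 and 0.563.

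**Figure D4:**
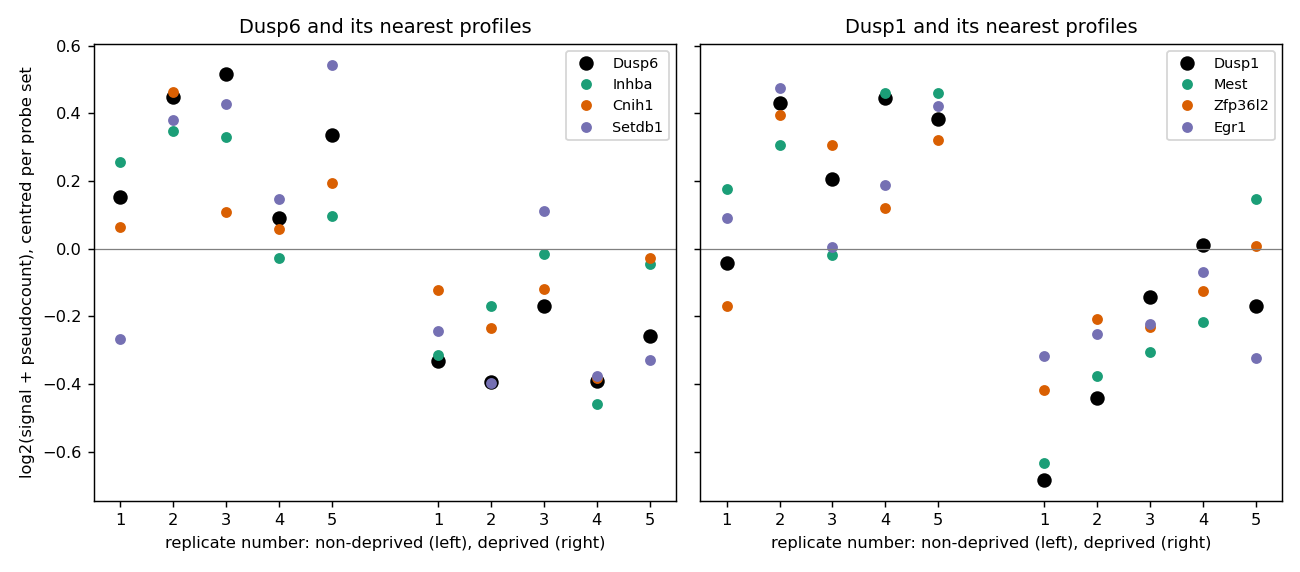
Log2 signal centred on each probe set's mean over 10 arrays (vertical axis) by replicate number within non-deprived (left) and deprived (right) arrays, for Dusp6 and Dusp1 (large black points) and their 3 nearest profiles (coloured points). Black Dusp6 points lie above 0 in all non-deprived and below 0 in all deprived arrays; Dusp1 crosses 0 at non-deprived replicate 1 and deprived replicate 4.

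Marker genes and array measures were read for differences that run with the groups. Median signals lay between 191 and 209 on the 10 arrays, and the 3′ to 5′ signal ratio of actin had a mean of 1.58 in both groups (SD 0.121 in deprived and 0.181 in non-deprived, n = 5 each; exact permutation p = 0.96). Neuronal genes were bright, among them Snap25 (13053 ± 679 and 12765 ± 581) and Gria2 (8162 ± 723 and 8571 ± 283), as is usual for cortex. The summed signal of 10 tested neuron markers was 45783 to 51860 in deprived and 47037 to 49618 in non-deprived arrays. Genes of other cell types gave signal in both groups: the sums were 12487 to 16733 and 13128 to 18390 for 8 astrocyte genes (brightest Aldoc and Glul) and 19904 to 26099 and 17843 to 25745 for 6 oligodendrocyte genes (Mbp and Mobp). They were 5638 to 6135 and 5103 to 5943 for 8 microglial genes (Csf1r and C1qc), and 2593 to 2937 and 2578 to 2996 for 10 genes of vessels (Cldn5 and Pecam1). Markers were read with 1 probe set per gene, that of the highest mean. In limma, Nefm among the neuron markers was lower at an unadjusted p under 0.05 (log2 -0.23 ± 0.10 SE). Slc1a2 and Agt among the astrocyte markers were higher at that threshold (0.38 ± 0.14 and 0.99 ± 0.35). Dimmer tested probe sets of the oligodendrocyte genes also reached it, lower for Mbp (-0.31 ± 0.13) and higher for Mobp (0.40 ± 0.17). Other dimmer tested probe sets of Mobp, at 0.03 ± 0.19 and 0.20 ± 0.17, did not. None passed the adjusted threshold. The ranges of the 2 groups overlapped for all 5 marker lists, and no marker was listed at 0 on any array. The exact two-sided permutation p of the log2 sums was 0.0635 for the microglial genes and 0.468 to 0.698 for the other lists. The part of these cells in the values of the inhibitors was not tested.

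**Figure D5:**
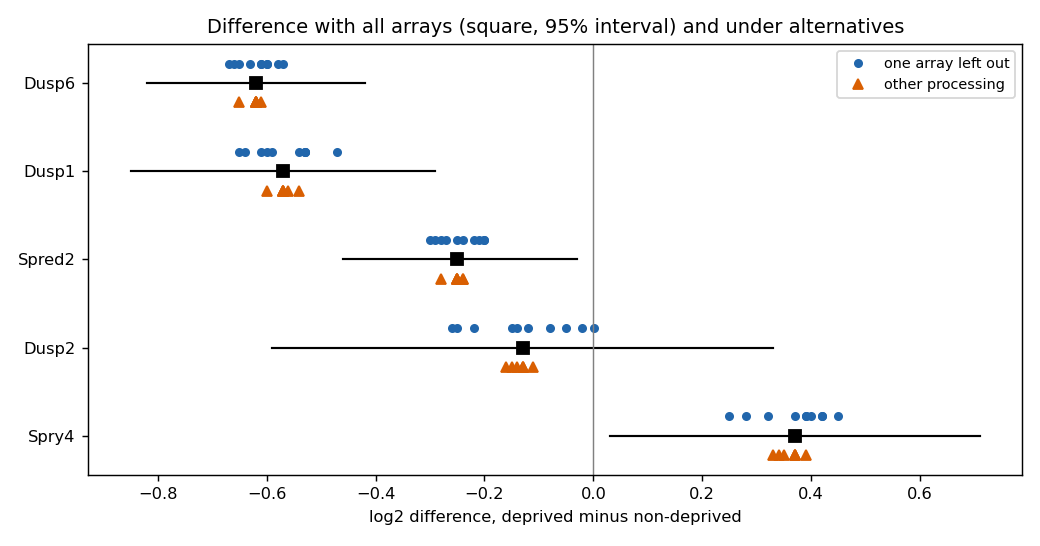
Log2 difference (deprived minus non-deprived) of the 5 tested members with all 10 arrays (square with 95% interval), with 1 array left out in turn (10 blue circles each) and under other processing (orange triangles). The sign held throughout for Dusp6, Dusp1, Spred2 and Spry4; Dusp2 reached 0.00079 without deprived replicate 4.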

How the data were processed

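Each of the 10 samples was hybridised to 1 one-colour Affymetrix array of 12488 probe sets. The deposited values are linear MAS5 signal intensities, per the submitters' processing notes; their version and scaling target were not given in the sources used here. The authors' intensities had a mean of 500 on every array once the lowest and highest 2% were left out, so total RNA per cell cannot be compared. Per the labels' protocols, RNA was extracted with Trizol. The number of arrays limits the precision of each value.

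Without 66 control probe sets, 12422 remained. A platform annotation, updated through Entrez IDs with a RefSeq gene table (10817 of 10833 matched), named the probe sets with 1 symbol; 396 had several and 1193 none. Tests used log2(value + 16), the pseudocount being the 10th percentile of the signals, which understates differences of dim probe sets. Probe sets under the 40th percentile of mean log2 signal were left out and 7453 tested, deprived minus non-deprived, with limma 3.58.1 in R 4.3.3 (lmFit, eBayes with trend, no covariate) and Benjamini-Hochberg adjustment at 0.05. The fit was tested on simulated data. Single values were also compared by exact two-sided permutation over all divisions of the arrays. Alternatives were pseudocounts of 1 and 50, a filter at the 60th percentile or none, quantile and median scaling, no trend, the replicate number as a block, and each array left out.

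Members, lists, tests and alternatives were chosen with earlier results of these data known. Genes named are all member probe sets, the 3 smallest p of each pathway list with Map2k1 in addition, the 2 brightest of each marker list and the 3 nearest profiles of Dusp6 and Dusp1. Junb, Jun, Ier3, Dusp8, Dusp16, Ptpn5, Ptprr, Map4k4, Creb1, Nefm, Slc1a2 and Agt were added after their values were seen. So were the dimmer probe sets of named genes outside the members.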

Additional observations from a re-analysis of the deposited data

Results flagged for a closer look

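Of 53 probe sets of members and named genes, each checked in both groups (106 checks), 6 groups held 1 array far above its other 4, by the gap to the nearest array relative to the group's range; such a check finds about 1 in 20 groups by chance on each scale. Among the members this was Spry4 alone, with a signal of 524.1 in deprived replicate 5, where the other deprived arrays lay between 314.6 and 365.4. The gap was 0.758 of the range in signal and 0.709 on the log2 scale, where it came just under the limit of 0.71. Gria2, an AMPA receptor subunit, had 9072 in non-deprived replicate 5, against 8382 to 8503 in the other 4 arrays. Ptpn5, a tyrosine phosphatase that acts on ERK, had 1428.9 in deprived replicate 1, against 1145.6 to 1220.4. Setdb1, a near profile of Dusp6, had 704.2 in deprived replicate 3, against 490.6 to 547.2. The astrocyte markers were Slc1a2, a glutamate transporter, with 389.4 in deprived replicate 4 against 271.6 to 304.5, and Agt, angiotensinogen, with 199.4 in non-deprived replicate 4 against 42.2 to 82.2. Only Gria2 and Ptpn5 passed on both scales.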

How the results depend on the processing

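Dusp6, Dusp1, Spred2 and Spry4 kept their direction in all 18 refits (8 of processing, 10 with 1 array left out). Dusp6 passed an adjusted p of 0.05 in limma with a filter at the 60th percentile (log2 -0.62, adjusted p = 0.0325), a pseudocount of 50 (-0.61, 0.0493) and without non-deprived replicate 1 (-0.66, 0.0303); its adjusted p over the other refits without the block ran up to 0.249. With 1 array left out, the log2 difference of Dusp6 ran from -0.67 to -0.57, of Dusp1 from -0.65 to -0.47, of Spred2 from -0.30 to -0.20, of Spry4 from 0.25 to 0.45 and of Dusp2 from -0.26 to 0.00079, the last without deprived replicate 4. The unadjusted p stayed under 0.05 in 5 of 10 omissions for Spred2 and 6 of 10 for Spry4; the cause of these moves was not tested beyond the array left out.

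No label ties a replicate number to an animal or batch, so the replicate block is given as an alternative only. Deviations of same-numbered arrays correlated at 0.02 to 0.23, above 0.1 for 4 of 5 numbers, and 4 of 5 correlated best with their own number, a hint from the data that some numbers may mark a shared factor. With it, Dusp6 (log2 -0.62, adjusted p = 0.0178) and Dusp1 (-0.57, 0.0496) passed in limma, and 6 probe sets passed in all.

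Over all probe sets, the count past an adjusted p of 0.05 was 2 with the 60th percentile filter or a pseudocount of 50 (Dusp6 and Junb), and 0 to 5 with 1 array left out: 5 without non-deprived replicate 1 and 1 without deprived replicate 4. The count higher at an unadjusted p under 0.05 was 96 with the 60th percentile filter, 106 under median scaling (against 259 lower, beside 181 and 176 in the main setting) and 367 with no filter. Groups did not overlap for 126 probe sets with no filter, where more were tested. They did not overlap for 94 to 154 with 1 array left out, where fewer arrays have to separate. The count of pathway genes higher at an unadjusted p under 0.05 was 1, and 0 with the 60th percentile filter, median scaling, quantile normalization or no filter, and 0 to 2 with 1 array left out. No signal over background was available to set a limit for Dusp2 and Spry4, the dimmest of the tested members.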
